A study of Mus musculus with 4 samples.

Results

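The vacuolar proton pump (V-ATPase) was examined through 10 of its genes in a list of m6A-linked RNA editing sites from young mouse cortex. The members were chosen by symbol: Atp6v1a, Atp6v1b2, Atp6v1g2 and Atp6v1h of the V1 sector, Atp6v0a1, Atp6v0b, Atp6v0c and Atp6v0d1 of the V0 sector, and the accessory genes Atp6ap1 and Atp6ap2. Of these 10, 9 were among the 4206 gene symbols of the list, with 110 of its 28412 sites. Atp6v0d1 had none.

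RNA of dissociated cortex was profiled by scDART-seq, in which the cytidine deaminase APOBEC1 is joined to the m6A-binding YTH domain and converts cytosines beside N6-methyladenosine to uracil. The pool held 2 genotypes, APOBEC1-YTH and APOBEC1-YTHmut, the last being a fusion with a mutated YTH domain. It combined replicates 1 and 2 and was split into 4 sublibraries. All mice, aged 6 to 8 weeks at the start, had received tamoxifen at 20 mg/kg every 24 h for 5 days, followed by 7 days without tamoxifen before dissection. The sources used here give neither the promoter of the transgene nor the cells that express it. The site list identifies neither a sublibrary nor a fusion nor a cell type, so it has no groups and no replicates, and no test between conditions or p-value was possible. Each site carries a whole number, called the site count below, whose meaning the list does not state and which is never below 3.

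The V-ATPase is a rotary enzyme. Its cytosolic V1 sector hydrolyses ATP and its membrane sector V0 carries protons into the lumen of lysosomes, endosomes and vesicles. In neurons the resulting proton gradient drives the loading of neurotransmitters into synaptic vesicles. m6A is a methyl mark on internal adenosines of mRNA, commonly found near stop codons and in 3' UTRs, in the consensus DRACH (D is A, G or T, R is A or G, H is A, C or T). The cytosine of this consensus directly follows the methylated adenosine. RAC below stands for a purine, then A, then the edited C.

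The sequence around the site with the highest count in each of the 9 members with a site is shown here, together with the next 3 sites of Atp6v1g2, because the description below starts from these leading sites. Each is 21 nt of the GENCODE M21 transcript with the edited C in the middle. Capitals mark the RAC triplet that ends in that C, and coordinates are those of mm10.
Atp6v1g2, 240 nt after the stop codon, chr17:35238028-35238048, plus strand: tcaaacccGACaaacccgaat
Atp6v1g2, 266 nt after it, chr17:35238054-35238074, plus strand: tgttccatGACacccactgga
Atp6v1g2, 189 nt after it, chr17:35237977-35237997, plus strand: ttctatgtGACaggatccaat
Atp6v1g2, 214 nt after it, chr17:35238002-35238022, plus strand: ccccctgaGACttacaagtag
Atp6v1a, 587 nt after the stop codon, chr16:44086827-44086847, minus strand: caagactgAACataatagata
Atp6v1b2, coding sequence, chr8:69088815-69088835, plus strand: gaatcgtgAACggggccgcac
Atp6v1h, coding sequence, chr1:5084536-5084556, plus strand: acaaagtgAACtggcagtctt
Atp6v0c, 60 nt after the stop codon, chr17:24164334-24164354, minus strand: cattccagAACgaacagcctg
Atp6v0a1, coding sequence, chr11:101020494-101020514, plus strand: ggaaagctAACatcccaatta
Atp6v0b, 5' UTR, chr4:117886872-117886892, minus strand: gcggcctgGACgcagcgcccg
Atp6ap2, 24 nt after the stop codon, chrX:12615887-12615907, plus strand: tagacttaGACaacaggtttg
Atp6ap1, 673 nt after the stop codon, chrX:74304669-74304689, plus strand: aaaataaaGACgtgttgcctt
All 12 hold RAC, as does every listed site with a known context and a count of 4 or more, and a filter of the list may have made that boundary. Not all lie in DRACH: the Atp6v1g2 site at 240 nt and those of Atp6v1b2, Atp6v0c, Atp6v0b and Atp6ap1 do not.

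Sites were spread very unevenly over the pump. Of the 10 members 9 had a site, where 17.6% of all annotated protein-coding symbols had 1. As the members were proposed with these results known, nothing is read from that difference. Atp6v1g2 had 45 sites and Atp6v1a 25, followed by Atp6v0c with 14 and Atp6v0a1 with 12. Those 4 had 10 or more sites, as 16.9% of all listed genes did. Atp6ap2 had 6, Atp6v1b2 4, Atp6v0b 2, and Atp6v1h and Atp6ap1 1 each, like 36.9% of all listed genes. The median member with a site had 6 sites, and the median listed gene 2. V1 genes together held 75 sites, V0 genes 28 and the accessory genes 7. Long transcripts offer more positions, and per kb of annotated exon Atp6v1g2 again came first, with 17.9 sites. Atp6v0c and Atp6v1a followed with 4.14 each, and the other members with a site had from 0.103 in Atp6v1h to 2.29 in Atp6ap2. The median listed gene had 0.456 sites per kb of exon, below 7 of the members and above Atp6ap1 and Atp6v1h.

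**Figure D1:**
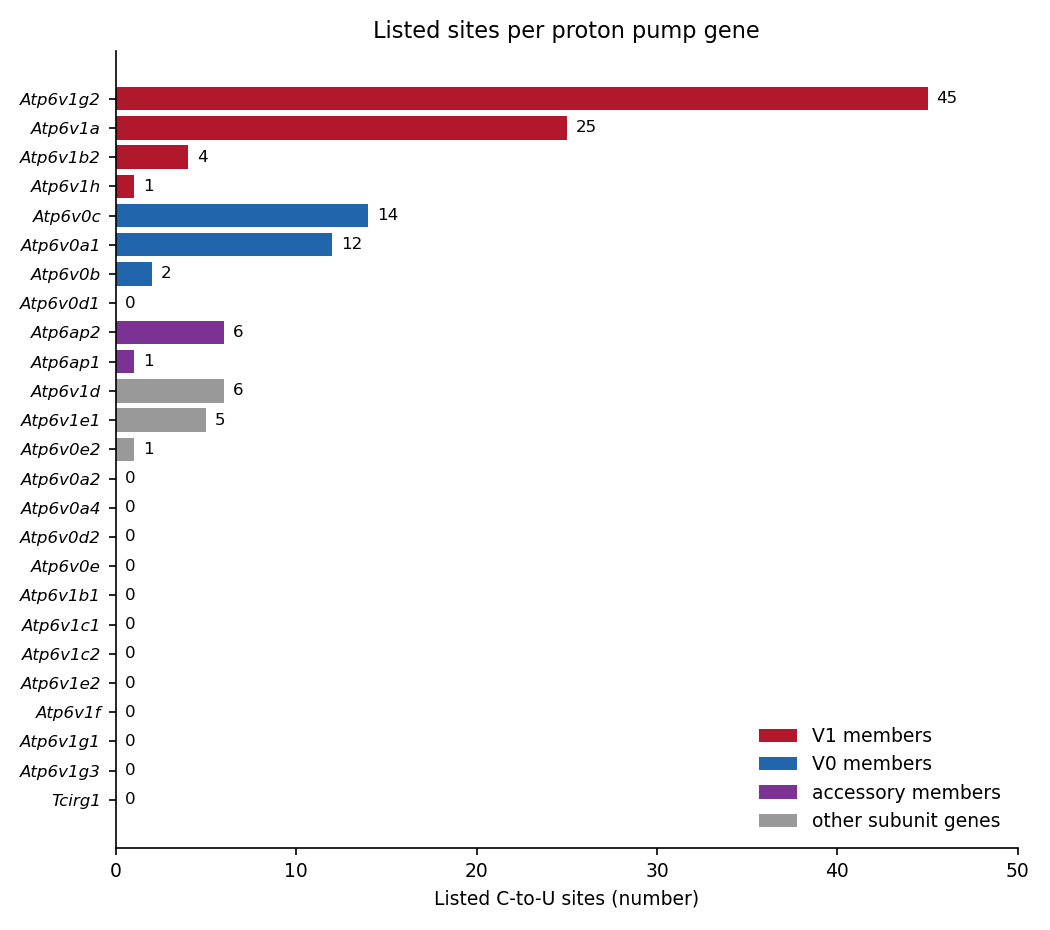
Number of listed sites (horizontal axis) in each proton pump gene, with V1 members, V0 members, accessory members and the 15 other subunit genes in separate colours. Atp6v1g2 leads with 45 sites and Atp6v1a follows with 25, while Atp6v0d1 and 12 of the 15 other subunit genes have none.

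Atp6v1g2 encodes an isoform of subunit G that is enriched in neurons and is part of the peripheral stalk holding the catalytic head in place. It lies on chromosome 17 from 35233660 to 35238767 on the plus strand and has 3 exons in its longest coding transcript. All 45 of its sites fell in the last exon, where 2 were coding and the other 43 lay in the 3' UTR. It ranked 88th by number of sites in the list, level with 6 other genes, and 28th by its highest count. Its share of the members' sites was 40.9%, and its share of their summed site count 73.7% (1761 of 2388).

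The counts along Atp6v1g2 were highest between 71 and 266 nt after the stop codon. The 6 sites with a count of 100 or more all lay in those 196 nt. In the order of the transcript they had counts of 108 at 71 nt, 123 at 159 nt, 156 at 189 nt, 142 at 214 nt, 319 at 240 nt and 258 at 266 nt. Such counts were reached at 1.99% of all listed sites and in 3.57% of listed genes, and at no site of the other members. Together these 6 sites held 1106 counts, 62.8% of the gene's total. The 95% exact Poisson interval of the highest, 319, ran from 285 to 356 and that of the next, 258, from 228 to 292, so the ends of these intervals overlap. The sites at 189 and 214 nt had intervals of 133 to 183 and 120 to 167, which overlap each other and lie below both. Poisson intervals here cover counting error only. They assume that site counts are independent Poisson counts, which the list does not state and which was not tested.

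The peak at 240 nt sat in a run of closely spaced sites. As the first of the sequences above shows, the triplet GAC is flanked on both sides by the letters AAACCC, and each copy holds a listed site of its own, with counts of 43 at 235 nt and 45 at 244 nt. The intervals of these counts, up to 57.9 and 60.2, lie far below that of the peak between them.

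Further along the 3' UTR, past the site at 266 nt, no count was above 60. A cluster from 476 to 485 nt had counts of 45, 53 and 39, and single sites reached 60 at 651 nt and 43 at 878 nt. Near the stop codon, the sites 17 and 33 nt after it had counts of 30 and 21. The coding site 18 nt before the end of the stop codon, in codon 113 of 118, had a count of 32. In all, 18 of the 45 sites had a count of 20 or more, which 12.1% of all listed sites had, and 14 had the lowest count of 3. The last site lay 933 nt after the stop codon, 36 nt from the annotated transcript end.

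**Figure D2:**
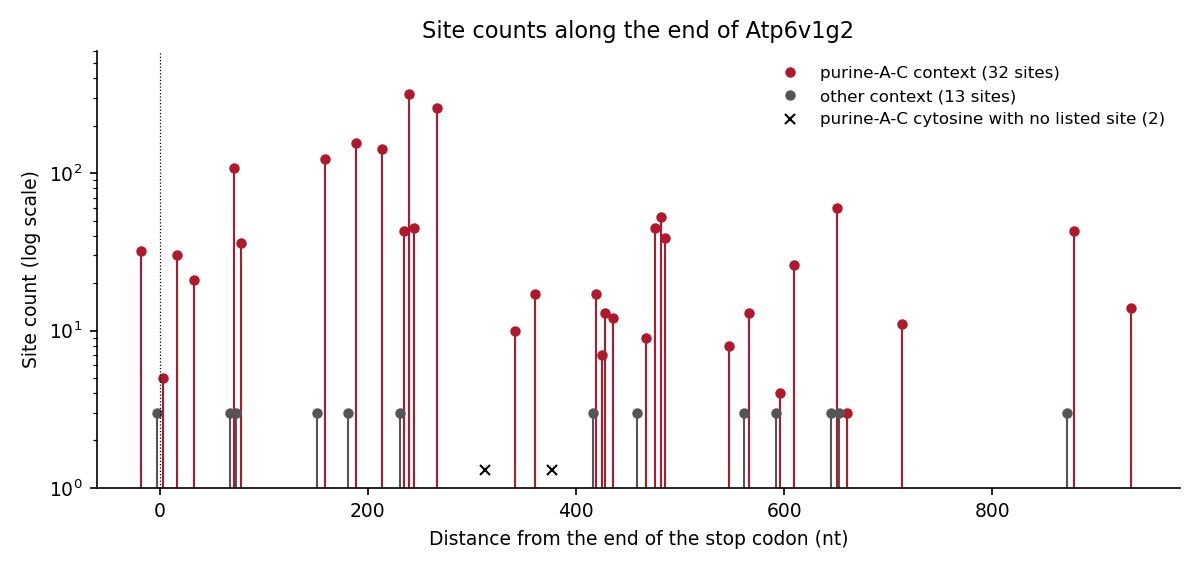
Site count (vertical axis, log scale) of the 45 listed sites of Atp6v1g2 against their distance in nt from the end of the stop codon, with RAC sites and other sites in separate colours and the 2 unlisted RAC cytosines as crosses at an arbitrary height. The 6 highest counts, 108 to 319, stand between 71 and 266 nt, and the 13 sites outside RAC all have a count of 3.

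Nearly every RAC cytosine of this 3' UTR was in the list. The 969 nt of 3' UTR hold 33 RAC cytosines, and 31 of them, 93.9% (95% exact binomial interval 79.8 to 99.3), had a listed site. The 2 without a site were at 313 and 377 nt after the stop codon, in the contexts GGACC and GAACC. Among the 3495 listed genes with at least 10 RAC cytosines in the 3' UTR, 4 had a higher share than Atp6v1g2, and the median share was 2.04%. The other parts of the transcript were sparse: 1 of 6 RAC cytosines of its coding sequence and 0 of 8 of its 5' UTR were listed. The 13 sites outside RAC in this gene all had a count of 3 and lay among the RAC sites. In Atp6v1g2 75.6% of sites had a neighbour within 10 nt, against 51.1% of all listed sites that share their gene with another site.

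Atp6v1a encodes subunit A, which carries the catalytic ATP-binding sites of the head. It lies on chromosome 16 from 44085402 to 44139705 on the minus strand. All 25 of its sites were in the 3' UTR, in the last of 15 exons, between 70 and 1904 nt after the stop codon, and its coding sequence, with 42 RAC cytosines, had none. The highest counts were 54 at 587 nt, 44 at 1131 nt and 33 at 985 nt. The interval of the count of 54, from 40.6 to 70.5, overlaps that of 44, from 32.0 to 59.1.

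The sites of Atp6v1a came in separate clusters. Between 551 and 587 nt after the stop codon, 5 RAC sites had counts of 19, 17, 23, 24 and 54. A pair at 985 and 996 nt had counts of 33 and 20, and another at 1124 and 1131 nt had counts of 28 and 44. Other stretches had no site. Before these clusters, from 101 to 400 nt after the stop codon, 10 RAC cytosines had no listed site. Between the first cluster and the pair at 985 nt, neither the 2 RAC cytosines from 701 to 800 nt nor the 3 from 801 to 900 nt were listed. Over the whole 3' UTR of 2022 nt, 20 of 53 RAC cytosines were listed, 37.7% (interval 24.8 to 52.1), a share below the interval of Atp6v1g2.

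The other V1 members had few sites. Atp6v1b2, on chromosome 8, encodes the subunit B isoform found in brain, which pairs with subunit A in the head. Its 4 sites had counts of 5, 3, 3 and 3. They were scattered, with 3 in the coding sequence, in exons 1, 6 and 14 of 14, and 1 in the 3' UTR, 655 nt after the stop codon. Atp6v1h, on chromosome 1, encodes subunit H, a regulator of ATP hydrolysis. It had 1 site, in codon 32 in exon 2 of 14, with a count of 10 (interval 4.80 to 18.4). None of the 6 RAC cytosines in its 3' UTR of 364 nt was listed.

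Among the V0 members, Atp6v0c stood first. It encodes the proteolipid subunit c, copies of which form the proton-carrying rotor ring, and lies on chromosome 17 from 24163866 to 24169702 on the minus strand. Its 14 sites comprised 10 in the 3' UTR, 3 in the coding sequence and 1 in the 5' UTR. The 3 highest counts lay within 13 nt: 28 at 60 nt, 17 at 64 nt and 18 at 72 nt after the stop codon. Their intervals, 18.6 to 40.5, 9.90 to 27.2 and 10.7 to 28.5, overlap, so under that assumption their order is uncertain. Sites this close may not be independent. Those 3 sites held 54.8% of the gene's summed count, and RAC sites further along had counts of 7 at 179 nt, 6 at 222 nt, 11 at 283 nt and 6 at 334 nt. Sites outside RAC at 67, 74 and 183 nt had a count of 3 each. Beyond 400 nt, where 2 RAC cytosines remain in the 538 nt of 3' UTR, no site was listed. Of its 12 RAC cytosines in the 3' UTR 7 were listed, 58.3% (interval 27.7 to 84.8).

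Near its start, Atp6v0c had a pair of coding sites in codons 6 and 8 with a count of 3 each, and a 5' UTR site with a count of 4. Its coding site in codon 128, with a count of 3, is uncertain, since the 51 nt around it also occur in the processed pseudogene Atp6v0c-ps2. No other member site shared its 51 nt with an annotated transcript of another gene, and none lay in an exon of another annotated gene on either strand.

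Atp6v0a1 encodes the subunit a isoform of neurons and synaptic vesicles, which forms the proton half-channels beside the ring. It lies on chromosome 11 from 101009452 to 101063719 on the plus strand, and its sites were spread over the coding sequence and the 3' UTR. Of its 12 sites 7 were in the coding sequence, 4 in the 3' UTR and 1 in an exon of a noncoding transcript. The highest count, 28, was in codon 76 in exon 4 of 22, and the next, 19, in codon 108 in exon 5. Exon 4 also held sites with a count of 3 in codons 75 and 82, exon 5 another in codon 101, and exon 11 a pair with a count of 3 in codons 357 and 360. In the 3' UTR the counts were 4 at 140 nt, 10 at 186 nt, 10 at 208 nt and 8 at 1120 nt after the stop codon. Atp6v0a1, like Atp6v1b2 and Atp6v1h, thus had its highest count and most of its sites in the coding sequence. Of its RAC cytosines, 4 of 27 in the 3' UTR and 4 of 79 in the coding sequence were listed.

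Atp6v0b, on chromosome 4, encodes a second proteolipid of the ring. It had a 5' UTR site with a count of 4 and a 3' UTR site outside RAC with a count of 3. The 3' UTR site lay 282 nt after the stop codon and 7 nt from the annotated transcript end. Atp6v0d1, on chromosome 8 from 105524465 to 105566047 on the minus strand, encodes subunit d, which couples the ring to the central stalk. It had no site, although its transcript of 1629 nt holds 52 RAC cytosines, 12 of them in the 3' UTR. The list holds neither expression nor read depth, so low expression, low coverage, a lack of editing and filtering cannot be told apart for a gene without a site.

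The accessory genes lie on the X chromosome and encode membrane proteins that accompany the pump during its assembly and traffic. Atp6ap2, also known as the prorenin receptor, had 6 sites, all in RAC and all in the 3' UTR. Their counts were 4 at 18 nt, 8 at 24 nt, 3 at 27 nt, 3 at 85 nt, 3 at 115 nt and 6 at 402 nt after the stop codon. Of these 5 lay in the first 115 nt of a 3' UTR of 1176 nt, and 6 of its 30 RAC cytosines were listed. Atp6ap1 had 1 site with the lowest count, 3, at 673 nt after the stop codon and 42 nt from the annotated transcript end. Among all listed genes, 21.1% had no count above 3.

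**Figure D3:**
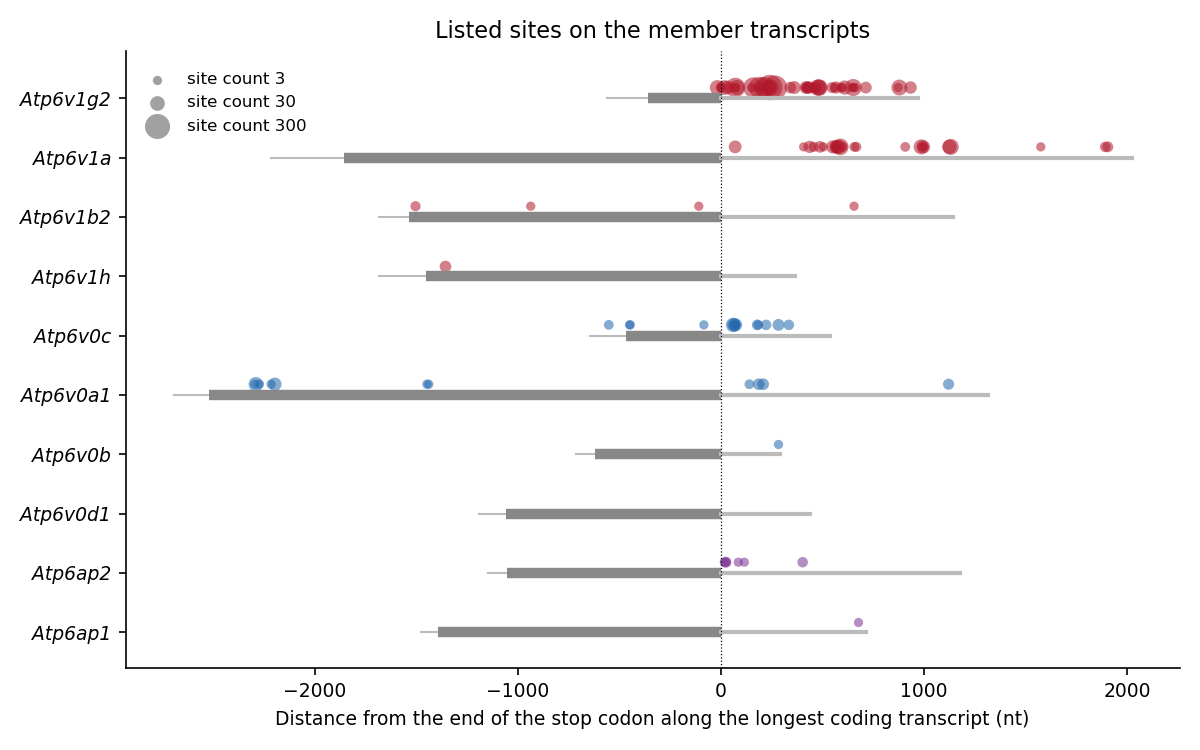
Position of the listed sites of each member (horizontal axis, nt from the end of the stop codon on the longest coding transcript), with V1, V0 and accessory genes in separate colours and dot size growing with the site count. Thick grey bars are coding sequence, thin lines are UTRs, and 2 sites that lie outside these transcripts, in Atp6v0a1 and Atp6v0b, are not drawn. Sites lie mostly after the stop codon in Atp6v1g2, Atp6v1a, Atp6v0c and Atp6ap2, with the clusters of Atp6v1a further along its 3' UTR, and 7 of the 12 sites of Atp6v0a1 lie in its coding sequence.

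Taking the members together, 91 of their 110 sites lay in a 3' UTR, 82.7% (95% exact binomial interval 74.4 to 89.3), where the whole list had 61.9%. The coding sequence held 16 of their sites, 14.5% (8.55 to 22.5), against 26.05% of all sites, and the 5' UTR 2. Of the V1 sites 92.0% (83.4 to 97.0) were in a 3' UTR, and of the V0 sites 53.6% (33.9 to 72.5). These values follow single genes rather than sectors. In V1, Atp6v1g2 had 43 of 45 sites there and Atp6v1a 25 of 25, but Atp6v1b2 1 of 4 and Atp6v1h 0 of 1. In V0, Atp6v0c had 10 of 14, Atp6v0a1 4 of 12 and Atp6v0b 1 of 2. The share of all members rested in part on Atp6v1g2: without it the 3' UTR share was 73.85% (61.5 to 84.0), an interval that reaches the value of the whole list. Last exons held 95 of the 110 sites, 86.4%, against 71.2% of all listed sites on an annotated transcript. Sites of a gene are not independent, so these intervals are narrower than the spread between genes, and the differences from the whole list were not tested.

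Within 400 nt after the stop codon lay 39 of the 108 member sites on longest coding transcripts, 36.1% (27.1 to 45.9), against 22.5% of all such sites. Without Atp6v1g2 the share was 31.7% (20.6 to 44.7). Among 3' UTR sites, the median distance from the stop codon was 436 nt in the members and 676 nt in the whole list. The 3' UTRs of the 10 members were 289 to 2022 nt long, which bounds this distance. Their lengths were not compared with those of all listed genes.

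The shares of RAC and DRACH in the members were close to those of the list. RAC held 83 of the 110 sites, 75.45% (66.3 to 83.2), against 77.8% of all sites with context, and DRACH held 62, 56.4% (46.6 to 65.8), against 55.2%. The 27 sites outside RAC all had a count of 3, as all such sites of the list do. Of those 27, 21 lay within 10 nt of a RAC site of the same gene, with a median distance of 4 nt. The lowest count, 3, was carried by 40 member sites, 36.4%, against 41.0% of all sites.

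The members also differed from each other in site counts. The median count of RAC sites was 28 in Atp6v1g2, 14.5 in Atp6v1a, 8 in Atp6v0a1 and 7 in Atp6v0c, against 6 over all RAC sites of the list. It was 3.5 in Atp6ap2 and 3 in Atp6v1b2. Atp6v1h, Atp6v0b and Atp6ap1 had a single RAC site each, with counts of 10, 4 and 3. A count of 20 or more was found in 4 members, at 18 sites of Atp6v1g2, 7 of Atp6v1a and 1 each of Atp6v0c and Atp6v0a1. Of all listed genes 21.9% had such a count at any site. The 5 other members with a site had counts of 3 to 10.

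Listed sites per available cytosine separated the regions as well. In the 3' UTRs of the 10 members 70 of 219 RAC cytosines had a site, 32.0%, against 5.46% of those of all listed genes. Without Atp6v1g2 the members had 39 of 186, or 20.97%. In their coding sequences 10 of 349 had a site, 2.87%, against 2.42% in all listed genes. The pooled share in the members' coding sequences was near that of all listed genes, and the pooled share in their 3' UTRs was above it, differences that were not tested. The 3' UTR excess did not hold for each member. Atp6v1g2, Atp6v1a and Atp6v0c held 31, 20 and 7 of the 70 cytosines, and Atp6ap2, Atp6v0a1 and Atp6ap1 were also above 5.46%. Atp6v1b2, with 4.35%, and Atp6v1h, Atp6v0b and Atp6v0d1, with 0, were below it.

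**Figure D4:**
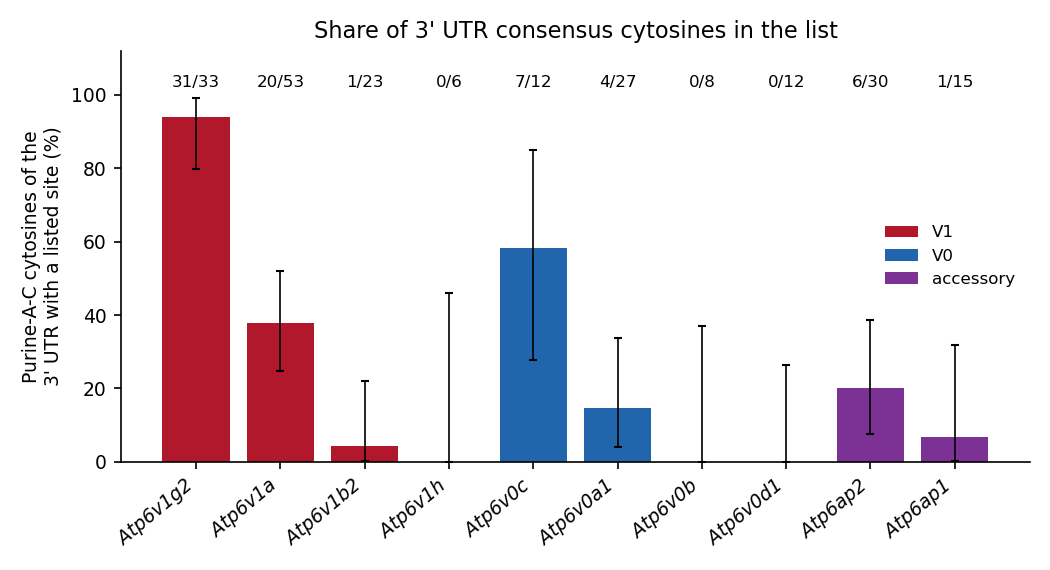
Percentage of the RAC cytosines in the 3' UTR of each member that have a listed site, with the numbers above the bars and 95% exact binomial intervals as error bars, which cover counting error only. Atp6v1g2 reaches 93.9%, Atp6v0c 58.3% and Atp6v1a 37.7%, and Atp6v1h, Atp6v0b and Atp6v0d1 are at 0.

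Of 15 further genes that encode subunits of the pump, 3 had a site. Atp6v1d, whose subunit D is the central rotor shaft, had 6 sites with counts of up to 9, and Atp6v1e1, whose subunit E forms the peripheral stalk with subunit G, had 5 with counts of up to 11. Atp6v0e2, a small membrane subunit, had 1 with a count of 4. The share with a site was 20.0%, beside 17.6% of all protein-coding symbols. These 15 are the subunit genes left after the members were chosen with results known, so nothing is read from that share. Genes without a site included Atp6v1c1 and Atp6v1f, which encode subunits C and F, and Atp6v0e.

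Paralogous subunits could be set side by side. Subunit G has 3 isoforms. Atp6v1g2 had 45 sites, and the broadly expressed Atp6v1g1 and the kidney isoform Atp6v1g3 had 0, although their 3' UTRs hold 12 and 35 RAC cytosines. For subunit B, Atp6v1b2 had 4 sites and Atp6v1b1, the form of acid-secreting epithelia, had 0. For subunit a, Atp6v0a1 had 12 sites, while Atp6v0a2, the kidney form Atp6v0a4 and the osteoclast form Tcirg1 had 0. For subunit E, Atp6v1e1 had 5 and the testis form Atp6v1e2 had 0. For subunit d, neither Atp6v0d1 nor Atp6v0d2 had a site. In each of these families at most 1 isoform had sites. Of all protein-coding symbols only 17.6% had a site, and Atp6v1g2, Atp6v1b2 and Atp6v0a1 became members with results known. Nothing is therefore read from that pattern, and whether the other isoforms were read in these cells is not in the list.

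Of 11 assembly factors and regulators of the pump, 5 had a site, 45.45% against 17.6% of all protein-coding symbols. Those 5 had a median of 6 sites, against 2 in all listed genes. Oxr1, a TLDc-domain protein, had 17 sites, 10 in the 3' UTR, with a highest count of 29. Dmxl2, a rabconnectin that promotes pump assembly on synaptic vesicles, had 14 sites, 12 of them in the coding sequence, with a highest count of 15. Ncoa7, also with a TLDc domain, had 6 coding sites with counts of up to 28, and the rabconnectin partner Wdr7 3. Rogdi had 1. The endoplasmic reticulum assembly factors Vma21, Tmem199 and Ccdc115 had 0.

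Of 14 vesicle and lysosome genes that work with the pump, 7 had a site, beside the same 17.6% of all protein-coding symbols. Those 7 had a median of 1 site, below the median of 2 in all listed genes. Slc17a7, the vesicular glutamate transporter that uses the proton gradient, had 36 sites and was the gene of these lists closest to Atp6v1g2 in number. It was also nearly full in its 3' UTR, with 19 of 20 RAC cytosines listed, but its highest count was 49. The chloride-proton exchanger Clcn4 was the next closest, with 18 sites and a highest count of 85, followed by Oxr1. Clcn3 had 8 sites. Slc17a6, Ostm1, Lamp1 and Lamp2 had 1 each. The vesicular transporters of GABA, Slc32a1, and of monoamines, Slc18a2, had 0.

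The cell types of the pool could be checked only through sites. Neuron markers had sites in 4 of 5 cases, with Gad1 at 0, astrocyte markers in 2 of 3, with Gfap at 0, and oligodendrocyte and endothelial markers in 3 of 3 each. Microglia markers had sites in 2 of 3, with P2ry12 at 0, the blood markers Hbb-bs and Hba-a1 had 0, and the choroid plexus marker Ttr had 8. These shares hide large differences in the number of sites. Neuron markers held 262 sites, astrocyte markers 273, oligodendrocyte markers 67, endothelial markers 57 and microglia markers 2. The oligodendrocyte marker Mog had only 1 site, with a count of 3. Of all protein-coding symbols 17.6% had a site. Sites of a pump gene cannot be assigned to any of these cell types, and fewer cells of a type, less RNA per cell and less editing cannot be told apart.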

How the data were processed

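The members and lists were chosen with earlier results of these data known. The submitters' processing notes name the aligner STAR 2.7.5 and, as build, mm10, and the series text names Bullseye as the caller of C-to-U sites. The authors deposited 1 list for the pool of 4 sublibraries, with an unlabelled whole number per site, taken here as an unnormalized count. Neither filters and depth nor the use made of the mutant control is given in the sources used here.

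Sites were taken by symbol and placed, with Python 3.11.15, on GENCODE M21, which has the coordinates of mm10. Of 28317 exonic sites with context, 28316 had a C on their strand, all 110 member sites among them. Where transcripts disagreed, 3' UTR took precedence over CDS, CDS over 5' UTR, and these over noncoding exons. Distances and RAC cytosines used the longest coding transcript, and the coding sequence included the stop codon. Intervals are 95%, exact binomial or Poisson (scipy 1.17.1). Position handling was tested on simulated data. The named genes were all 10 members and any gene of the fixed lists of other subunits, assembly factors and partners with a site, and others were named where a count needed it. Alternatives were a count of 4 or more, merging sites within 10 nt, leaving out Atp6v1g2, other region and transcript rules, a window of 200 nt, RAC for DRACH and assignment by position. Of the sublibraries, no separate values were analysed here.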

Additional observations from a re-analysis of the deposited data

How the results depend on the processing

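Of 40 values recomputed, 26 stayed close to the reported one, meaning within its 95% binomial interval for shares or within 1.5 times for other values, and 14 moved. With sites of a count of 4 or more, the members had 70 sites, 78.6% in DRACH, a median count of 15 and a median of 1.11 sites per kb of exon. No site outside RAC had a count above 3, so this choice removes all of them. Merging sites within 10 nt left 69 sites, 22 of them in Atp6v1g2. Without Atp6v1g2 the members had 65 sites, 73.85% in the 3' UTR, at most 25 in a member and a highest count of 54. The share near the stop codon was 24.1% with a window of 200 nt, against 12.8% of all such listed sites. RAC in place of DRACH gave 75.45%, and DRACH among RAC sites 74.7%. Sites per RAC cytosine of the exons, a different unit, had a median of 0.0745. No paired analysis was possible because all sites come from 1 pooled list. Depth is unknown, so a missing site sets no upper limit on editing.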

Other observations

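The bases before the edited cytosine were not represented in the same shares among the members' RAC sites as in the list. TGAC, the triplet GAC after a T, made up 21 of the 83 RAC sites of the members, 25.3%, against 13.1% of all RAC sites of the list. Atp6v1g2 held 12 of those 21, with counts from 8 to 258 and a median of 23.5, and all 12 TGAC cytosines of its 3' UTR were listed. AAAC, the most frequent of these contexts in the list with 27.2% of RAC sites, made up 13.25% in the members. The 3' UTR of Atp6v1g2 holds only 3 AAAC cytosines, and all 3 were listed. The highest count of the members, 319, was in CGAC, which was rare both in the members, at 2 sites, and in the list, at 3.54% of RAC sites. GGAC, the core of the favoured m6A motif, was found at 4 member sites with counts of 4 to 30. It made up 4.82% of the RAC sites of the members and 6.93% of those of the list. These are descriptions of 83 sites in 9 genes, without a test. The shares do not take account of how many cytosines each context offers, so they show no preference for a context.

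Of the 16 coding sites of the members, 11 lay at a codon position where a change from C to T leaves the residue as it is, 68.75%, against 48.3% of the 7320 listed coding sites in a complete reading frame. At none of the 16 would the change make a stop codon, as it would at 11.0% of those 7320. The sites with the highest coding counts were of the first kind: codon 113 of Atp6v1g2 with a count of 32, codons 76 and 108 of Atp6v0a1 with 28 and 19, and codon 32 of Atp6v1h with 10. The 11 also include the uncertain site in codon 128 of Atp6v0c. Both comparisons with the list rest on only 16 member sites and were not tested.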
